A study of Xenopus tropicalis with 9 samples.

Results

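Cyclins and the kinases they activate drive the cell cycle, and 9 of their genes were followed here through early development of the frog Xenopus tropicalis. They were the A-type cyclins ccna1 and ccna2, the B-type cyclins ccnb1, ccnb1.2 and ccnb2, the E-type cyclins ccne1 and ccne2, and the partner kinases cdk1 and cdk2. The genes were taken by symbol, and all 9 listed symbols were found among the 15288 genes of the expression table. RNA came from stage VI oocytes, which had been freed from their follicles with collagenase, and from whole embryos made by in vitro fertilization at the early (stage 6) and the late (stage 9) blastula, at the gastrula (stage 12), at the neurula (stage 16) and as young larvae (stage 30). The libraries were of a pair of kinds, 6 polyA libraries, one per stage, from RNA selected for its polyA tail, and 3 RiboZero (RZ) libraries from total RNA depleted of ribosomal RNA, for oocyte, stage 6 and stage 9. No mutant or transgene was used, and the adults had been given human chorionic gonadotropin before embryos were obtained. Each library held the pooled RNA of 3 biological replicates, so that there was 1 library per condition, no spread between replicates, and no test.

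A cyclin has no enzymatic activity of its own, and binds a cyclin-dependent kinase to switch it on. Cyclin E with Cdk2 acts at the start of DNA replication, cyclin A with Cdk2 and Cdk1 acts in S phase and on entry into mitosis, and cyclin B with Cdk1 forms maturation promoting factor, the activity that drives oocyte maturation and mitosis. In the frog egg the messages for these proteins are stored in the oocyte, their polyA tails are lengthened or shortened in the cytoplasm while the genome is silent, and the cleavage divisions run on this store until the mid-blastula transition (MBT), which lies before stage 9. In Xenopus laevis cyclin A1 is the form of the egg and early embryo and cyclin A2 the form of later, somatic cell cycles.

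The values are RPKM, a level per length of transcript: reads on an exon were divided by its length and by the depth of the library, and the value of a gene was the mean over its non-redundant exons. The depth used for the RPKM was worked out from the steps between values of single-exon genes. It lay between 13422643 (polyA stage 9) and 44490754 (polyA stage 6) reads, and 3 reads on a single exon of 1 kb were worth 0.0674 to 0.224 RPKM. Whether this depth counts mapped reads alone was not checked against the read numbers of the study. The summed RPKM over all genes was lowest in polyA stage 6, at 128617, and lay between 152651 and 346421 in the other libraries. The 10 oocyte markers summed to 704 RPKM in polyA oocyte, 757 RPKM in polyA stage 9, where they were highest, and 16.7 RPKM in polyA stage 30, and to 546 RPKM in RZ stage 9 against 437 RPKM in RZ oocyte. The 8 gastrula markers were highest in polyA stage 12 (369 RPKM), and the 10 neurula and larval markers were highest in polyA stage 30 (1525 RPKM). The 10 markers of follicle and other ovarian somatic cells summed to 5.31 RPKM in polyA oocyte, where 1 of them reached 1 RPKM and amh was listed at 0, and to 0.844 RPKM in RZ oocyte. Their part in the values below was not tested.

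The B-type cyclins and ccna1 were among the most abundant messages of the RZ libraries, with ranks between 1 and 16 of 15288 genes, whereas ccne2 ranked between 1275 and 2421 there. Together the 9 genes made up 1.53% of the summed RPKM in polyA oocyte, 0.916% in early blastula, 1.64% in late blastula, 0.391% in gastrula, 0.138% in neurula and 0.0764% in larva. In the RZ libraries their share was 1.5% in oocyte, 1.22% in early blastula and 1.60% in late blastula. In RZ oocyte 4 of the 9 were among the 10 genes with the highest RPKM, with ccnb1.2 at rank 1, ccnb1 at rank 2, ccnb2 at rank 3 and ccna1 at rank 5. The gene ccnb1 had the highest RPKM of all 15288 genes in RZ stage 6 and in RZ stage 9.

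**Figure D1:**
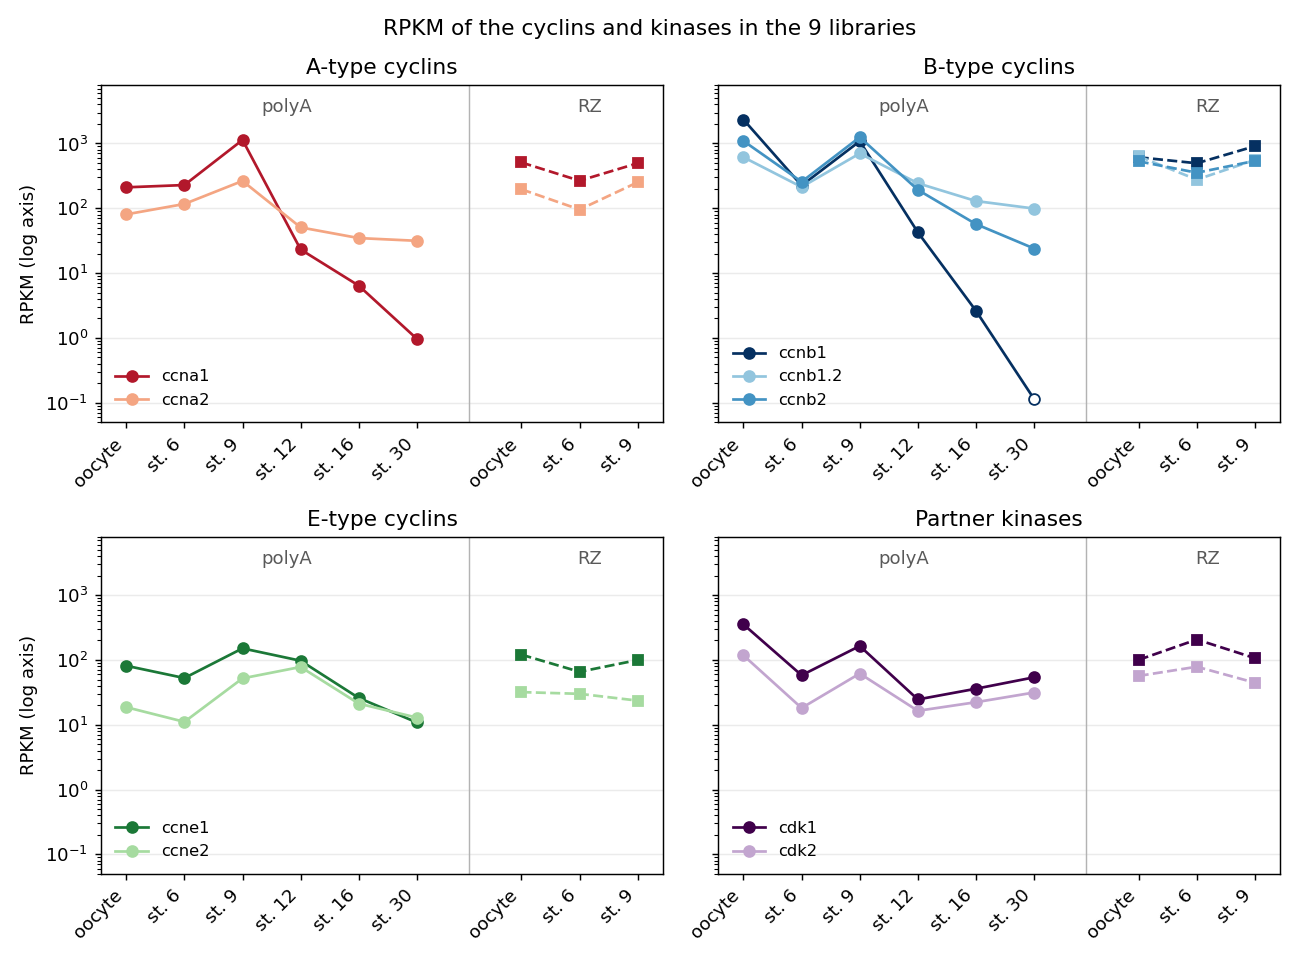
RPKM (log axis) of the 9 genes in the 6 polyA libraries (circles, solid lines) and the 3 RZ libraries (squares, dashed lines), by class, with 1 library per point and no error bars. The open circle (ccnb1, polyA stage 30, 0.114 RPKM) lies under the value of 3 reads on a single exon of 1 kb, and ccna1 and ccnb1 end below all the others. Over oocyte, stage 6 and stage 9 the RZ values of each gene span less than its polyA values, as for genes in general (median 1.81-fold in RZ, 3.88-fold in polyA).

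The B-type cyclin genes had the highest summed level of the classes in all 9 libraries, between 123 RPKM (polyA stage 30) and 4036 RPKM (polyA oocyte). The gene ccnb1 (scaffold 1, 15619306 to 15623391, + strand, JGI 7.1 assembly) encodes a cyclin B1, a subunit of maturation promoting factor, and its message is a well known case of tail lengthening during maturation of the Xenopus laevis oocyte. Its polyA level was 2332 RPKM in oocyte, 224 in early blastula, 1082 in late blastula, 42.5 in gastrula, 2.61 in neurula and 0.114 in larva. Its RZ level was 612 RPKM in oocyte, 495 in early blastula and 908 in late blastula. Its early polyA levels thus spanned 10.4-fold, more than for 93.5% of the 7912 genes with at least 1 RPKM in the 3 early polyA libraries, while its RZ levels spanned 1.84-fold, close to the median of 1.81-fold over 8492 genes. The stage 30 level was below that of 3 reads on a single exon of 1 kb (0.186 RPKM). The number of reads behind it cannot be worked out from a mean over several exons, so no fold of the plain RPKM is given for it. Changes and ratios that use it are given only as log2(RPKM + 1), in the closing section.

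The second cyclin B1 gene, ccnb1.2 (scaffold 4, 103607813 to 103614008, + strand), behaved otherwise in the late libraries. The polyA libraries gave 613 RPKM in oocyte, 213 in early blastula, 701 in late blastula, 243 in gastrula, 129 in neurula and 98.9 in larva. The RZ libraries gave 631 RPKM in oocyte, 277 in early blastula and 556 in late blastula. It had the highest RPKM of the 9 genes in each of the 3 latest libraries, where its ranks among all genes were 96 at stage 12, 291 at stage 16 and 510 at stage 30. Reads that matched several places in the genome had been left out before deposit, so sequence shared by near-identical copies would not count toward either gene.

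The third of the class, ccnb2 (scaffold 9, 57770190 to 57776662, + strand), encodes cyclin B2, which also binds Cdk1. In polyA RNA it stood at 1091 RPKM in oocyte, 256 in early blastula, 1247 in late blastula, 192 in gastrula, 56.9 in neurula and 23.9 in larva. In RZ RNA it stood at 530 RPKM in oocyte, 353 in early blastula and 538 in late blastula. Its course after stage 9 lay between those of ccnb1 and ccnb1.2.

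Of the A-type cyclins, ccna1 (scaffold 2, 102185068 to 102191765, + strand), the egg and early embryo form, had its highest polyA level at stage 9. PolyA values were 210.3 RPKM in oocyte, 228 in early blastula, 1132 in late blastula, 23.1 in gastrula, 6.39 in neurula and 0.965 in larva. RZ values were 509 RPKM in oocyte, 266 in early blastula and 495 in late blastula. Between stage 9 and stage 12 it dropped more than any of the other 8 genes, to 23.1 RPKM at stage 12 against 1132 RPKM at stage 9, a 49.0-fold lower level, and only 0.758% of the 10032 genes compared had a lower ratio.

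The somatic form ccna2 (scaffold 1, 158119141 to 158129061, − strand) was lower than ccna1 in the 6 early libraries and higher than it in the 3 later ones. It measured, in the polyA libraries, 80.5 RPKM in oocyte, 116 in early blastula, 264 in late blastula, 50.6 in gastrula, 34.6 in neurula and 31.4 in larva. It measured, in the RZ libraries, 196 RPKM in oocyte, 95.5 in early blastula and 252 in late blastula. It was present as a maternal message: its RZ oocyte level gave it rank 52 of 15288 genes.

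The E-type cyclins had the lowest summed level of the 3 classes in all 6 early libraries, 63.8 to 203 RPKM. The gene ccne1 (scaffold 4, 34372994 to 34383548, + strand) encodes cyclin E1, the maternal partner of Cdk2 in Xenopus laevis embryos. Its polyA level was 81.5 RPKM in oocyte, 52.7 in early blastula, 151 in late blastula, 97.4 in gastrula, 26.0 in neurula and 10.9 in larva. Its RZ level was 121 RPKM in oocyte, 65.7 in early blastula and 99.9 in late blastula. Its 3 early polyA levels spanned 2.87-fold, less than those of the other 8 genes.

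The gene ccne2 (scaffold 6, 19274081 to 19278898, + strand), which encodes the second cyclin E, was the one member with its highest polyA level at the gastrula. The polyA libraries gave 18.7 RPKM in oocyte, 11.1 in early blastula, 52.1 in late blastula, 78.1 in gastrula, 21.3 in neurula and 12.9 in larva. The RZ libraries gave 31.9 RPKM in oocyte, 30.1 in early blastula and 23.6 in late blastula. Between stage 9 and stage 12 its polyA RPKM was 1.5-fold higher at stage 12, whereas the median gene was lower there (log2 ratio −1.39).

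The kinases had a course of their own. The gene cdk1 (scaffold 7, 9698495 to 9706905, + strand) encodes the catalytic subunit of maturation promoting factor. In polyA RNA it stood at 354 RPKM in oocyte, 58.1 in early blastula, 165 in late blastula, 24.6 in gastrula, 36.0 in neurula and 54.0 in larva. In RZ RNA it stood at 101 RPKM in oocyte, 207 in early blastula and 107 in late blastula. It was thus highest in oocyte among polyA libraries and highest at stage 6 among RZ libraries.

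The gene cdk2 (scaffold 2, 81160042 to 81173024, − strand), the partner of cyclins E and A, had a similar course at lower values. PolyA values were 118 RPKM in oocyte, 18.2 in early blastula, 61.9 in late blastula, 16.4 in gastrula, 22.3 in neurula and 31.5 in larva. RZ values were 56.8 RPKM in oocyte, 78.7 in early blastula and 44.6 in late blastula. Both kinases had their lowest polyA level at stage 12 and higher levels at stages 16 and 30, when each of the 7 cyclins was lower than at stage 12. The order of neighbouring stages could not be set against a spread for any of the 9 genes.

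In the polyA libraries the leading paralog of the A-type and of the B-type cyclins was another one in the gastrula than in the late blastula. Ratios of 2 genes within a library do not depend on how libraries are scaled. The ccna2 to ccna1 ratio was 0.383 in polyA oocyte, 0.510 in early blastula, 0.233 in late blastula, 2.19 in gastrula, 5.42 in neurula and 32.6 in larva. In the RZ libraries it was 0.385 in oocyte, 0.359 in early blastula and 0.509 in late blastula. Thus ccna1 held 66.2% to 81.1% of A-type RPKM in the 6 early libraries of both kinds, and ccna2 held 68.7% at stage 12, 84.4% at stage 16 and 97.0% at stage 30.

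Among B-type polyA messages ccnb1 led in oocyte (57.8%), ccnb2 in early blastula (37.0%) and late blastula (41.2%), and ccnb1.2 in gastrula (50.9%), where ccnb2 held 40.2%. The ccnb1.2 to ccnb1 ratio was 0.263 in polyA oocyte, 0.949 in early blastula, 0.648 in late blastula, 5.71 in gastrula and 49.4 in neurula. In the RZ libraries it was 1.03 in oocyte, 0.559 in early blastula and 0.613 in late blastula. The share of ccnb1 was 57.8% in polyA oocyte and 34.5% in RZ oocyte, so that the lead of ccnb1 in the oocyte was seen in the polyA library and not in the RZ library, where ccnb1.2 had 35.6%. In RZ stage 6 ccnb1 held 44.0% and ccnb2 31.4%, and in RZ stage 9 they held 45.3% and 26.9%. The lead of ccnb2 in the blastula was thus seen in the polyA libraries alone. At stage 30 ccnb1.2 held 80.4% and ccnb2 19.5% of B-type polyA RPKM.

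The E-type cyclins came near parity in the gastrula, where ccne1 still held 55.5%, and ccne2 had the larger share in the larva alone. The ccne2 to ccne1 ratio was 0.229 in polyA oocyte, 0.211 in early blastula, 0.344 in late blastula, 0.801 in gastrula, 0.819 in neurula and 1.19 in larva. In the RZ libraries it was 0.264 in oocyte, 0.457 in early blastula and 0.236 in late blastula, so it was lower in late than in early blastula there. The cdk2 to cdk1 ratio stayed below 1 in all 9 libraries, between 0.312 (polyA stage 6) and 0.668 (polyA stage 12).

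**Figure D2:**
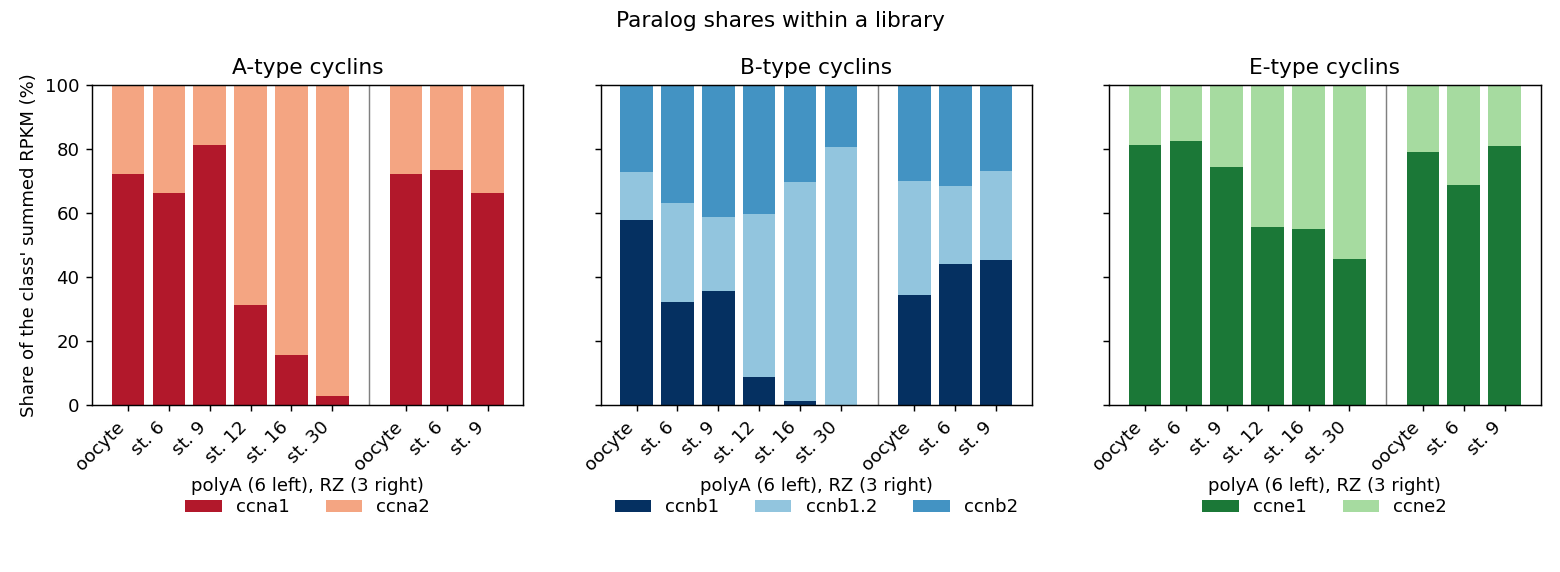
Share (%) of each paralog in the summed RPKM of its class, in the 6 polyA libraries (left of the line in each panel) and the 3 RZ libraries (right of it), with 1 library per bar. The share of ccna1 was 31.3% in polyA stage 12 and 81.1% in polyA stage 9, and that of ccnb1 was 8.90% in polyA stage 12 against 35.7% in polyA stage 9.

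The transcriptome as a whole shifted between the early polyA libraries, and the changes of the 9 genes are given beside that shift. Here a gene was said to fall or rise when its RPKM changed by 2-fold or more. From oocyte to stage 6, 5 of the 9 genes fell (ccnb1, ccnb1.2, ccnb2, cdk1 and cdk2), against 62.7% of the 9274 genes compared. The log2 change over the oocyte was −3.38 for ccnb1, −2.70 for cdk2, −2.61 for cdk1, −2.09 for ccnb2 and −1.53 for ccnb1.2, beside a median of −1.44 over all genes. The A-type cyclins stood well above the median, with log2 changes of 0.53 for ccna2 and 0.12 for ccna1, which were 1.97 and 1.55 above the median, and 90.1% and 84.4% of genes had lower values. With the library medians over maternal genes made equal, 3 of the 9 genes fell, and 25.3% of genes did.

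From stage 6 to stage 9 all 9 genes rose in the polyA libraries, against 68.7% of 9348 genes. Their log2 changes ran between 1.18 (ccna2) and 2.31 (ccna1), with a median of 1.77 beside 1.53 over all genes. Relative to that median the changes lay between −0.35 and 0.79, with 6 genes above it and ccna2, cdk1 and ccne1 below it, and none of the 9 rose when the library medians were made equal. The summed RPKM over all genes was 295947 at stage 9 against 128617 at stage 6.

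From stage 9 to stage 12, across the period in which maternal messages are replaced by those of the embryo, 7 of the 9 genes fell, against 59.2% of 10032 genes. The log2 changes were −5.62 for ccna1, −4.67 for ccnb1, −2.74 for cdk1, −2.70 for ccnb2, −2.38 for ccna2, −1.91 for cdk2 and −1.53 for ccnb1.2. Relative to the median over all genes (−1.39), ccna1 lay at −4.23 and ccnb1 at −3.28, while ccnb1.2 lay at −0.14, so that its fall was that of the middle gene. The E-type cyclins lay above the median, ccne1 by 0.75 and ccne2 by 1.97.

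After the gastrula 6 of the 7 cyclins fell. From stage 12 to stage 30, 6 of the 9 genes fell in the polyA libraries, against 12.8% of 10997 genes, and 1 of the 9 (cdk1) rose, against 43.9%. The log2 change was −4.58 for ccna1, −3.16 for ccne1, −3.01 for ccnb2, −2.60 for ccne2 and −1.30 for ccnb1.2, beside a median of 0.74 over all genes. The gene ccnb1 had 0.114 RPKM at stage 30 against 42.5 RPKM at stage 12. The remaining cyclin, ccna2, had a log2 change of −0.69, which was 1.43 below the median. The kinases lay near the median, with log2 changes of 1.13 for cdk1 and 0.94 for cdk2, only 0.39 and 0.19 above it. In whole embryos, fewer cells that express a gene and less RNA per cell cannot be told apart. From stage 12 on there were polyA libraries alone. For these changes and those from stage 9 to stage 12, less RNA and a lost polyA tail cannot be told apart either.

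In the RZ libraries the kinases had changes of the other sign than in the polyA libraries. From oocyte to stage 6, 2 of the 9 genes fell in RZ (ccnb1.2, log2 change −1.19, and ccna2, −1.04), against 20.2% of 9182 genes. In the same step 1 of the 9 rose: cdk1, with 207 RPKM at stage 6 against 101 RPKM in oocyte, a log2 change of 1.04, and a rise of this size was seen for 1.7% of genes. The gene cdk2 had 78.7 RPKM in RZ stage 6 against 56.8 RPKM in RZ oocyte, a log2 change of 0.47, and 93.3% of genes had lower values. The median over all genes was −0.42 in this step.

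From stage 6 to stage 9, 2 of the 9 genes rose in RZ (ccna2, log2 change 1.40, and ccnb1.2, 1.01), against 31.9% of 9280 genes, and none fell, against 7.33%. The kinases were the lowest of the 9, with log2 changes of −0.96 for cdk1 and −0.82 for cdk2, which 7.83% and 9.85% of genes undercut. Over the whole early period, RZ stage 9 against RZ oocyte, the log2 changes of the 9 genes lay between −0.44 (ccne2) and 0.57 (ccnb1), so that none of them differed by 2-fold, beside 7.25% of genes that were lower and 7.81% that were higher. In the polyA libraries 3 of the 9 were higher at stage 9 than in oocyte, against 26.1% of genes, with log2 changes of 2.43 for ccna1, 1.71 for ccna2 and 1.48 for ccne2. There 2 of the 9 were lower, against 19.7% of genes, ccnb1 (−1.11) and cdk1 (−1.10). The other 4 had 0.89 (ccne1), 0.19 (ccnb1.2), 0.19 (ccnb2) and −0.93 (cdk2).

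Set side by side, the 2 kinds of library gave opposite signs for 4 of the 9 genes from oocyte to stage 6. The kinases were lower in polyA and higher in RZ at stage 6, as were 20.7% of the 8910 genes with a change in both kinds of library. The A-type cyclins were higher in polyA and lower in RZ at stage 6, as were 12.7% of these genes. Relative to the medians over all genes all 4 kept opposite signs. So taken, ccnb1 (polyA −1.94, RZ 0.12) and ccne1 (polyA 0.81, RZ −0.45) had opposite signs as well. No share of genes was worked out for signs relative to the medians. From stage 6 to stage 9 the signs were opposite for cdk1, cdk2 and ccne2, which were higher in polyA and lower in RZ at stage 9, as were 26.9% of 9057 genes, but relative to the medians the polyA change of cdk1 was −0.02, on the same side as its RZ change.

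**Figure D3:**
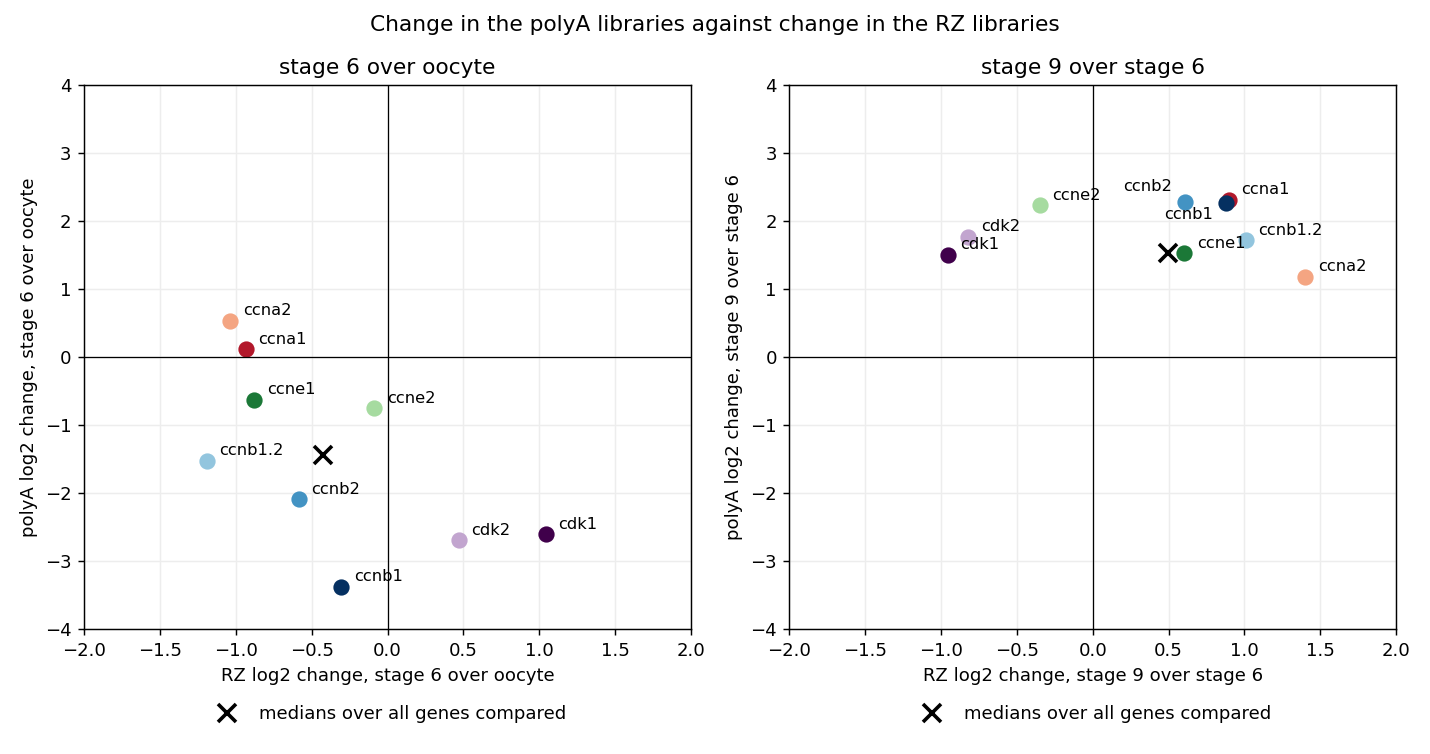
Log2 change of each gene in the polyA libraries (vertical axis) against that in the RZ libraries (horizontal axis), for stage 6 over oocyte (left) and stage 9 over stage 6 (right), with the medians over all genes compared as a cross. In the left panel cdk1 (polyA −2.61, RZ 1.04) and cdk2 (polyA −2.70, RZ 0.47) lie at the lower right, and ccna1 and ccna2 at the upper left.

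The ratio of polyA to RZ RPKM (PA/RZ) has been used as a relative measure of polyadenylation. It was taken on the log2 scale among maternal genes, those that reached 1 RPKM in oocyte in either kind of library, and a gene was called RZ-enriched at −0.5 or lower and polyA-enriched at 0.5 or higher. In oocyte the kinases were polyA-enriched and the A-type and E-type cyclins RZ-enriched, while the B-type cyclins did not keep together. The 4 polyA-enriched genes were ccnb1 (1.93), cdk1 (1.81), cdk2 (1.05) and ccnb2 (1.04), against 43.8% of 9503 maternal genes, which is about the same share. The 4 RZ-enriched genes were ccna2 (−1.28), ccna1 (−1.27), ccne2 (−0.77) and ccne1 (−0.57), against 28.1%. With −0.04, ccnb1.2 stood between these groups, while ccnb1, the other cyclin B1 gene, had the highest ratio of the 9.

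At stage 6 the order was different. The 4 RZ-enriched genes were cdk2 (−2.12), cdk1 (−1.83), ccne2 (−1.44) and ccnb1 (−1.14), against 54.1% of 9470 maternal genes. The A-type cyclins had the highest ratios of the 9, with 0.29 for ccna2 and −0.22 for ccna1. The median over maternal genes was −0.63 at this stage, and relative to it ccna2 lay at 0.91, ccna1 at 0.41, ccne1 at 0.31, ccnb1.2 at 0.25 and ccnb2 at 0.16, all above. Below it lay cdk2 at −1.49, cdk1 at −1.21, ccne2 at −0.81 and ccnb1 at −0.51.

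The shift of the ratio between oocyte and stage 6 thus separated the members. The difference in log2 PA/RZ, stage 6 minus oocyte, was −3.65 for cdk1, −3.17 for cdk2, −3.07 for ccnb1 and −1.51 for ccnb2, and 4.65% of maternal genes had a lower difference than cdk1. It was 1.57 for ccna2, 1.05 for ccna1 and 0.25 for ccne1, while the median over 9462 maternal genes was −0.89. Among cyclins of 1 class, ccnb1 and ccnb1.2 (−0.33) differed in this shift by more than ccna1 and ccna2 did.

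At stage 9, 5 of the 9 genes were polyA-enriched, against 38.5% of 9486 maternal genes. They were ccnb2 (1.21), ccna1 (1.19), ccne2 (1.14), cdk1 (0.62) and ccne1 (0.60). The ratios of cdk2 (0.47), ccnb1.2 (0.33), ccnb1 (0.25) and ccna2 (0.07) were also above 0. Relative to the median over maternal genes (0.22), 3 of the 9 reached 0.5, cdk1 lay at 0.40 and ccne1 at 0.37, and ccna2 lay below it at −0.16. No share of maternal genes was worked out for this centred count, so it cannot be set against the 38.5%. The difference in log2 PA/RZ, stage 9 minus oocyte, was 2.47 for ccna1, 1.91 for ccne2, −1.68 for ccnb1 and −1.19 for cdk1. By stage 9 newly made RNA can contribute to both kinds of library, and its part in these ratios was not tested.

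**Figure D4:**
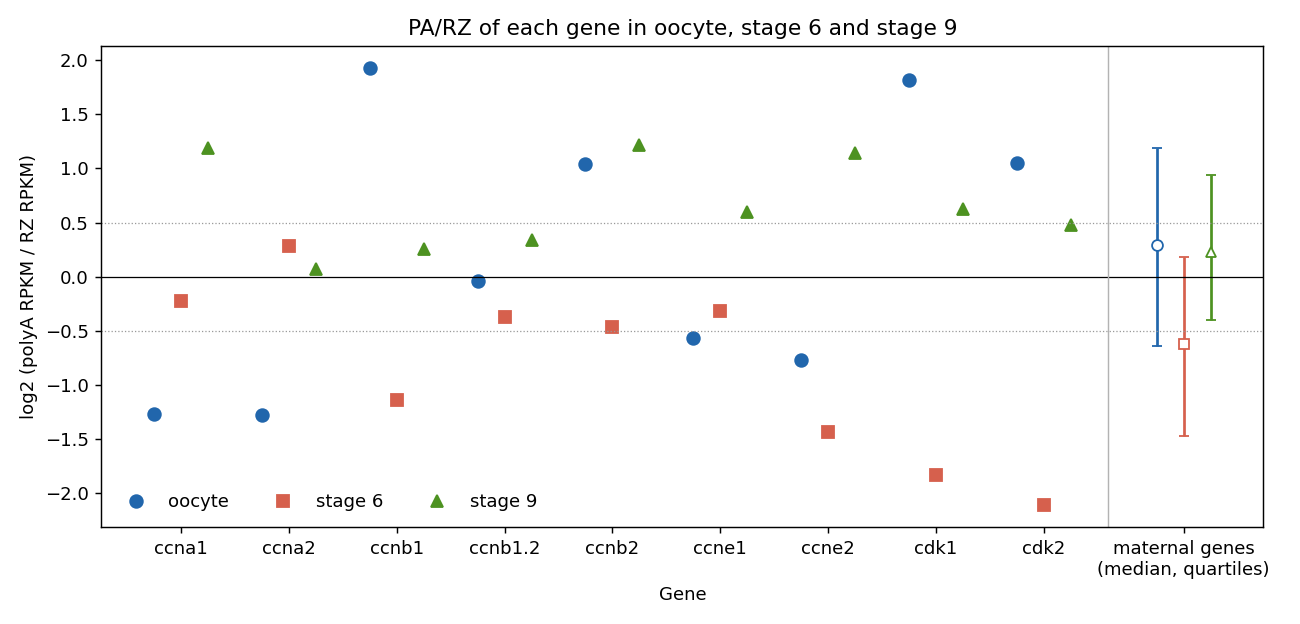
Log2 PA/RZ of each gene in oocyte (circles), stage 6 (squares) and stage 9 (triangles), from 1 polyA and 1 RZ library per stage. Open symbols at the right give the median and bars the quartiles over maternal genes, and dotted lines mark −0.5 and 0.5. The genes ccnb1, cdk1 and cdk2 are high in oocyte and low at stage 6, while ccna1 and ccna2 are low in oocyte. The ratio of ccnb2 is high in oocyte and lower at stage 6 (−0.46), where it still lies above the maternal median (−0.63).

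Cyclin and kinase messages were also set against each other within each library, a comparison chosen after the values were seen. Summed B-type RPKM over cdk1 RPKM was 11.4 in polyA oocyte, 11.9 in early blastula, 18.4 in late blastula, 19.4 in gastrula, 5.24 in neurula and 2.28 in larva. In RZ it was 17.6 in oocyte, 5.43 in early blastula and 18.8 in late blastula. The B-type messages therefore outnumbered cdk1 per length in all 9 libraries.

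The other ratios had their low points in the same RZ library. Summed A-type RPKM over cdk1 RPKM was 0.822 in polyA oocyte, 5.93 in early blastula, 8.48 in late blastula, 3.00 in gastrula, 1.14 in neurula and 0.60 in larva. In RZ it was 7.0 in oocyte, 1.75 in early blastula and 7.0 in late blastula. Summed E-type RPKM over cdk2 RPKM was 0.851 in polyA oocyte, 3.51 in early blastula, 3.29 in late blastula, 10.7 in gastrula, 2.12 in neurula and 0.755 in larva, and in RZ it was 2.69 in oocyte, 1.22 in early blastula and 2.77 in late blastula. Each of the 3 ratios was at its lowest at stage 6 among RZ libraries and lowest at stage 30 among polyA libraries.

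**Figure D5:**
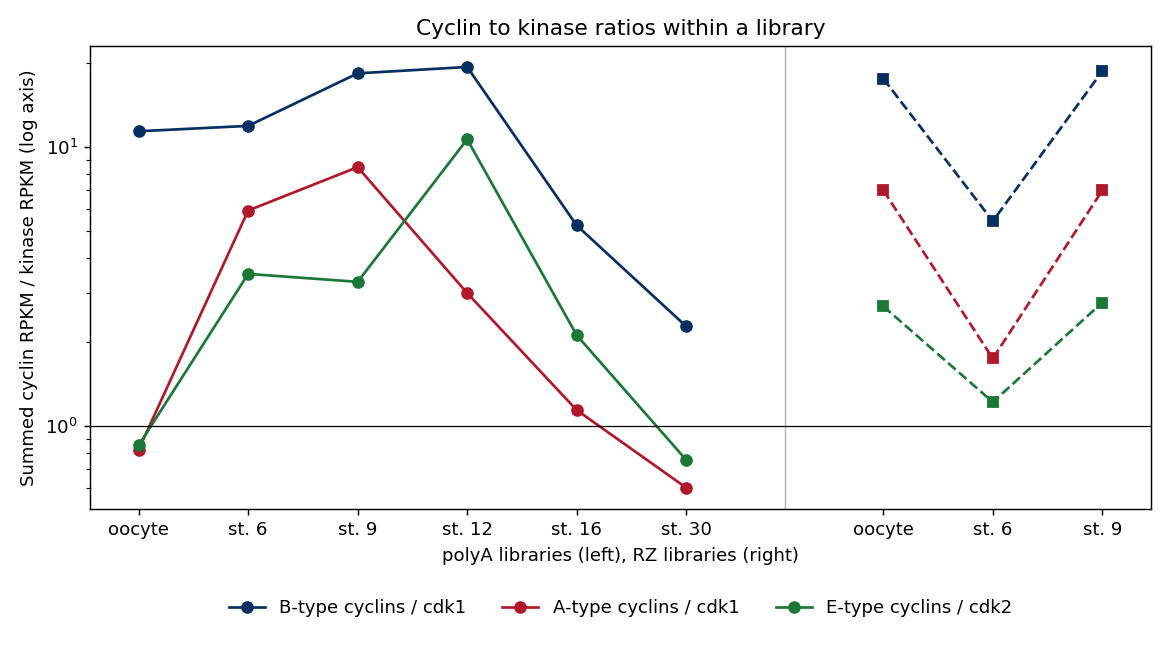
Summed RPKM of a cyclin class over the RPKM of its kinase (log axis) in the 6 polyA libraries (circles, solid lines) and the 3 RZ libraries (squares, dashed lines), with 1 library per point; the horizontal line marks equal levels. The B-type to cdk1 ratio is 2.28 in polyA stage 30 and 19.4 in polyA stage 12, and all 3 ratios dip in RZ stage 6.

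Other genes that control these kinases were taken from lists of 50 symbols, of which 41 were in the table. From oocyte to stage 6, 22 of the 39 compared fell in the polyA libraries and 5 of 38 fell in RZ, beside 62.7% and 20.2% of all genes. In the same step 4 of the 39 rose in polyA and 1 of the 38 rose in RZ, beside 5.83% and 1.7% of all genes. The 6 genes of the Greatwall and phosphatase arm, in which the kinase Greatwall (mastl) acts through ensa and arpp19 to inhibit the phosphatase that removes phosphate from Cdk1 substrates and the ppp2r2 genes encode subunits of that phosphatase, all fell in polyA, and their median log2 change in RZ was 0.01. Of 10 partners and activators, 6 fell in polyA and 1 rose, beside 62.7% and 5.83% of all genes. The gene that rose was cdc25a, with 54.2 RPKM in polyA stage 6 against 14.4 RPKM in polyA oocyte. Its RZ level was 107 RPKM at stage 6 against 158 RPKM in oocyte. The largest polyA change was that of cdk7, the catalytic subunit of the Cdk-activating kinase, with 1.94 RPKM in polyA stage 6 against 31.5 RPKM in polyA oocyte. Its cyclin partner ccnh had 5.48 RPKM in polyA stage 6 against 60.0 RPKM in polyA oocyte. In RZ, ccnh had 29.9 RPKM at stage 6 against 21.3 RPKM in oocyte, whereas cdk7 had 11.5 RPKM against 13.0 RPKM, and mnat1, the third subunit of this kinase, had 5.98 RPKM against 15.0 RPKM. Of 7 inhibitors of these kinases 4 were in the table, and 2 of the 4 fell in polyA, beside 62.7% of all genes. They were cdkn1a, with 0.147 RPKM at stage 6 against 3.30 RPKM in oocyte, and cdknx, with 0.272 RPKM at stage 6 against 1.67 RPKM in oocyte. The more abundant wee2 (129 RPKM at stage 6 against 173 RPKM in oocyte) and pkmyt1 (10.7 RPKM against 14.6 RPKM) did not fall by 2-fold in polyA. Neither cdkn1a nor cdknx fell in RZ. There cdknx was the 1 listed gene that rose, with 3.86 RPKM at stage 6 against 0.818 RPKM in oocyte. The RZ level of cdkn1a was 3.71 RPKM at stage 6 against 2.98 RPKM in oocyte. By contrast wee2 fell in RZ, with 77.6 RPKM at stage 6 against 189.8 RPKM in oocyte, and pkmyt1 did not change by 2-fold.

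In oocyte all 6 genes of the Greatwall arm were polyA-enriched (median log2 PA/RZ 1.26), as were 6 of the 10 partners and activators and 43.8% of maternal genes, whereas the 5 G1 cyclins, kinases and retinoblastoma family genes that had a ratio were all RZ-enriched (median −1.78), beside 28.1% of maternal genes. The lowest of these were rb1, with 2.55 RPKM in polyA oocyte and 15.8 RPKM in RZ oocyte, and the D-type cyclin ccnd2, with 3.66 RPKM in polyA oocyte and 21.1 RPKM in RZ oocyte. The lists held 13 genes that carry out or control cyclin destruction by the APC/C and SCF ubiquitin ligases. From stage 9 to stage 12, 11 of the 13 fell in the polyA libraries, beside 59.2% of all genes. The median log2 change of the 13 was −1.41, beside −1.39 over all genes. Among the 11 was ube2c, the ubiquitin conjugating enzyme of the APC/C, with 53.8 RPKM at stage 12 against 698 RPKM at stage 9. From stage 12 to stage 30, 10 of the 41 listed genes fell, beside 6 of the 9 genes described here and 12.8% of all genes.

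The cyclin ccnb3, the single other gene of the same classes found in the table, encodes a B-type cyclin known in animals for roles in meiosis. It measured, in the polyA libraries, 53.9 RPKM in oocyte, 10.5 in early blastula, 50.8 in late blastula, 81.3 in gastrula, 53.1 in neurula and 36.6 in larva. It measured, in the RZ libraries, 44.9 RPKM in oocyte, 68.8 in early blastula and 34.5 in late blastula. It had a lower polyA and a higher RZ level at stage 6 than in oocyte, as cdk1 and cdk2 had, and was highest at stage 12 among polyA libraries, as ccne2 was.

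The genes with the most similar course were looked for among the 8142 genes that reached 10 RPKM somewhere, by Pearson's r of log2(RPKM + 1) over the 9 libraries, given as a description, since the libraries share stages and preparation. The closest to ccnb1 was oat.2 (r = 0.99, Spearman's rho 0.95), with 4.60 RPKM in polyA stage 30 and 373 RPKM in polyA oocyte. The closest to ccna1 was dnd1 (r = 0.98, rho 0.93), a germ plasm RNA-binding protein gene, with 0.723 RPKM in larval polyA RNA against 37.4 RPKM in that of the late blastula. For ccna2 it was papss1 (r = 0.99), for ccnb1.2 the replication gene gins2 (r = 0.99), for cdk1 nubpl (r = 0.98) and for cdk2 ngrn (r = 0.99). The closest to ccnb2 was a gene model without a symbol on scaffold 9 (r = 0.99).

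The E-type cyclins had less close companions, with dlgap5 for ccne1 (r = 0.95) and fam122b for ccne2 (r = 0.87). Within the 9 genes, r was highest for ccnb1 with ccnb2 (0.98) and for cdk1 with cdk2 (0.96), and among all 8142 genes cdk2 stood at place 24 of those like cdk1. The lowest r was that of ccne2 with cdk1 (−0.10).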

How the data were processed

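The deposited table gave 1 RPKM value per gene and library. Per the labels and the study's methods, the authors aligned reads with BWA (version 0.6.1 in the submitters' processing notes) to the JGI 7.1 assembly, left out reads matching several places, and gave each Xenbase gene the mean RPKM of the non-redundant exons of its isoforms; how strand was used is not given in the sources used here. RNA of 3 biological replicates had been selected for polyA or depleted of ribosomal RNA, pooled, made into cDNA with random primers and sequenced on the Illumina Genome Analyzer. No scaling between libraries beyond RPKM was applied.

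Levels, log2 ratios without a pseudocount, ranks and shares were computed from the RPKM as deposited with Python 3.11.15, numpy 2.4.6 and pandas 2.3.3. Changes used genes above 0 in both libraries and at 1 RPKM in 1 of them, and a 2-fold change was the threshold. Coordinates were written with a first base of 1. Of these steps, only the recovery of library depth and the 2-fold calls were tested on simulated data. The rule for naming took the 9 genes, the 3 genes most like each (the closest is given), and for other lists the 2 with the largest change. For the other lists only some of the genes that met this rule are given. From that rule come ube2c, rb1, ccnd2, cdk7, ccnh, mnat1, cdc25a, cdkn1a and cdknx, while wee2 and pkmyt1 were added to complete the inhibitors. The members and lists were chosen with earlier results of these data known. Alternatives were other scalings, a pseudocount of 1, other filters, folds and thresholds. Planned sequence features were not analysed here. With 1 library per condition no p-value was computed.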

Additional observations from a re-analysis of the deposited data

Results flagged for a closer look

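For 7 comparisons the polyA and RZ libraries moved in opposite directions; with 1 library per condition the difference was not tested. From oocyte to stage 6 the polyA log2 change minus the RZ log2 change was −3.65 for cdk1, −3.17 for cdk2, 1.57 for ccna2 and 1.05 for ccna1. From stage 6 to stage 9 it was 2.59 for cdk2, 2.58 for ccne2 and 2.46 for cdk1. Of maternal genes, 4.65% had a lower difference than cdk1 in the first step, and 88.8% had a lower one than cdk2 in the second. Lower polyA with higher RZ was seen for 20.7% of genes in the first step, and the reverse for 12.7%. In the second step higher polyA with lower RZ was seen for 26.9% of genes. The polyA change of ccna1 was only 1.08-fold, and relative to the median that of cdk1 in the second step was −0.02, on the side of its RZ change.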

How the results depend on the processing

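The counts of genes past a 2-fold change depended on how libraries were scaled. With library medians made equal, 3 of the 9 genes in place of 5 fell from polyA oocyte to stage 6, beside 25.3% of genes (also 3 with summed RPKM made equal), 0 in place of 9 rose from polyA stage 6 to stage 9, beside 18.7% (4 with summed RPKM made equal), 0 in place of 2 fell from RZ oocyte to stage 6, beside 7.07% (also 0 with summed RPKM made equal), and 0 in place of 2 rose from RZ stage 6 to stage 9, beside 16.6% (1 with summed RPKM made equal). The polyA change of ccna2 from stage 6 to stage 9 turned to −0.27 with equal medians. Changes under 2-fold that also turned sign were those of ccne1 (0.68) and ccne2 (0.56) from polyA oocyte to stage 6, of ccne1 (0.74) from polyA stage 9 to stage 12, of ccnb1 (0.19) and ccne2 (0.41) from RZ oocyte to stage 6, and of ccnb2 (−0.05) from RZ oocyte to stage 9. With log2(RPKM + 1) changes and ratios at stage 30 moved: ccna1 to −3.62 and ccnb1 to −5.29 against stage 12, ccna1 to −1.91 and ccnb1 to −1.70 against stage 16, and the log2 ratios over ccna1 or ccnb1 to 4.05 for ccna2, 4.48 for ccnb2 and 6.49 for ccnb1.2. At 4-fold, 4 rose from polyA stage 6 to stage 9, and 0 fell or rose from RZ oocyte to stage 6 or rose from RZ stage 6 to stage 9. At 1.5-fold, 4 fell from RZ oocyte to stage 6 and 6 rose from RZ stage 6 to stage 9. With a PA/RZ threshold of 0, 8 genes in place of 4 were RZ-enriched at stage 6, and with library medians made equal 3 were. With the ratio centred on its median over maternal genes 4 were, with ccnb1 at −0.51, close to the threshold. For the 4-fold, 1.5-fold, threshold-0 and summed-RPKM counts, and for the equal-median and centred counts of RZ-enriched genes, no share of all genes was worked out. These counts therefore cannot be set against the whole transcriptome. The count that fell from polyA stage 9 to stage 12 stayed within 1.5 times of 7, with 5 under equal medians, beside 26.8% of genes. The genes with the most similar course were unstable: Spearman's rho kept 0 or 1 of the 3 closest for each of the 9 genes, and Pearson's r over the 6 polyA libraries kept 0. No paired analysis was possible because each condition had 1 library. Precision was limited by the lack of replicates; the level of ccnb1 in polyA stage 30 lay under that of 3 reads on a single exon of 1 kb.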
